A study of Rattus rattus with 23 samples.

Results

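The genes described here are the collagens and a set of cartilage, bone and stromal matrix genes in laser-captured nasal respiratory epithelium of rats. They were chosen by name: probe sets whose single platform symbol is a collagen chain, or is Sparc, Comp, Chad, Acan, Fn1, Dcn, Lum, Bgn, Matn1, Hapln1 or Dmp1. That gave 52 genes (41 collagen genes and 11 others) on 73 probe sets, of 14218 genes with a symbol and 31099 probe sets on the array. Each gene is represented by its probe set with the highest mean, and each value is the log2 of the deposited intensity plus 16.

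The 23 Affymetrix Rat230_2 arrays each hold RNA of 1 male adult Sprague-Dawley rat that breathed, through the nose only, either hydrogen sulfide (H2S), a gas that inhibits mitochondrial respiration, at 200 ppm, or air. H2S animals were sampled at 3 h (4 animals), 6 h (3 animals) and 24 h (4 animals) after the first exposure, which lasted 3 h on 1 day, and air animals at 24 h (4 animals). A second set had 3 h of exposure on each of 5 days and was sampled at 144 h, with 4 H2S animals and 4 air animals. The labels give an age of 60 days, while the design text gives 10 weeks, and RNA was amplified in 2 rounds before labelling. The treatment field of animals 6, 14 and 18 names the 5 days although their titles give 3 h, 24 h and 24 h, and groups here follow the titles. The 200 ppm also stands in the treatment field of air animals. The design text speaks of 24 rats, and 23 arrays are used here. No allele or transgene is labelled for any group. The cells were cut by laser from sections at the site of injury and regeneration. Animals at 3 h and 6 h have no air animals of their own time and are set against the air animals of 24 h, which the 24 h comparison shares.

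Fibrillar collagens, built from types I, III and V, form the fibres of connective tissue and of bone, and are made by fibroblasts and osteoblasts. Hyaline cartilage has a matrix of its own, with type II, IX and XI collagen fibrils around the proteoglycan aggrecan (Acan), and type X collagen is the product of hypertrophic chondrocytes. In the nose, a thin respiratory epithelium lies on a basement membrane of type IV collagen, over a lamina propria, turbinate bone and septal cartilage. The epithelial cells themselves are known for the anchoring collagens VII and XVII and not for fibrillar collagen.

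The genes were split into 6 classes: 13 cartilage genes, 1 bone matrix gene (Dmp1), 20 stromal genes, 9 genes of basement membranes and vessels, 2 epithelial anchoring genes and 7 other collagens. Of the 52 genes, 46 passed the filter on low values (a signal over the array's own median, on 3 arrays or more) and were tested. All 20 stromal genes passed, with 11 of 13 cartilage genes, 8 of 9 basement membrane and vessel genes, both anchoring genes, Dmp1 and 4 of 7 other collagens. Col9a1 and Matn1 (cartilage), Col4a4 (basement membrane), Col19a1, Col20a1 and Col23a1 did not pass, so they have values but no test. Hapln1 passed only through air arrays, since it read at most 6.37 in H2S animals, under the median of each array. Its place in the counts of lower genes below is therefore tied to the filter.

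On the arrays as a whole, the median signal ran from 136 to 341. The arrays of animals 18 (air, 24 h) and 22 (air, 144 h) stood apart. Their median correlation with the other arrays was 0.431 and 0.742, while that of the other 21 arrays ran from 0.858 to 0.917. Animal 18 gave the highest value of all arrays for 23.75% of genes and animal 22 for 15.38%. Among the 52 matrix genes they were highest for 8 and 7. Markers of the labelled tissue were present: of 12 respiratory epithelium markers, 11 exceeded the array's own median on all 23 arrays, among them Epcam, Krt8, Krt18 and the ciliated cell factor Foxj1, and Cldn7 did so on 4 arrays. Markers of bone were also above the array median on nearly all arrays: Bglap (osteocalcin), Ibsp (bone sialoprotein), Spp1 and the osteocyte gene Mepe on 23, and Alpl and Phex on 21.

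**Figure D1:**
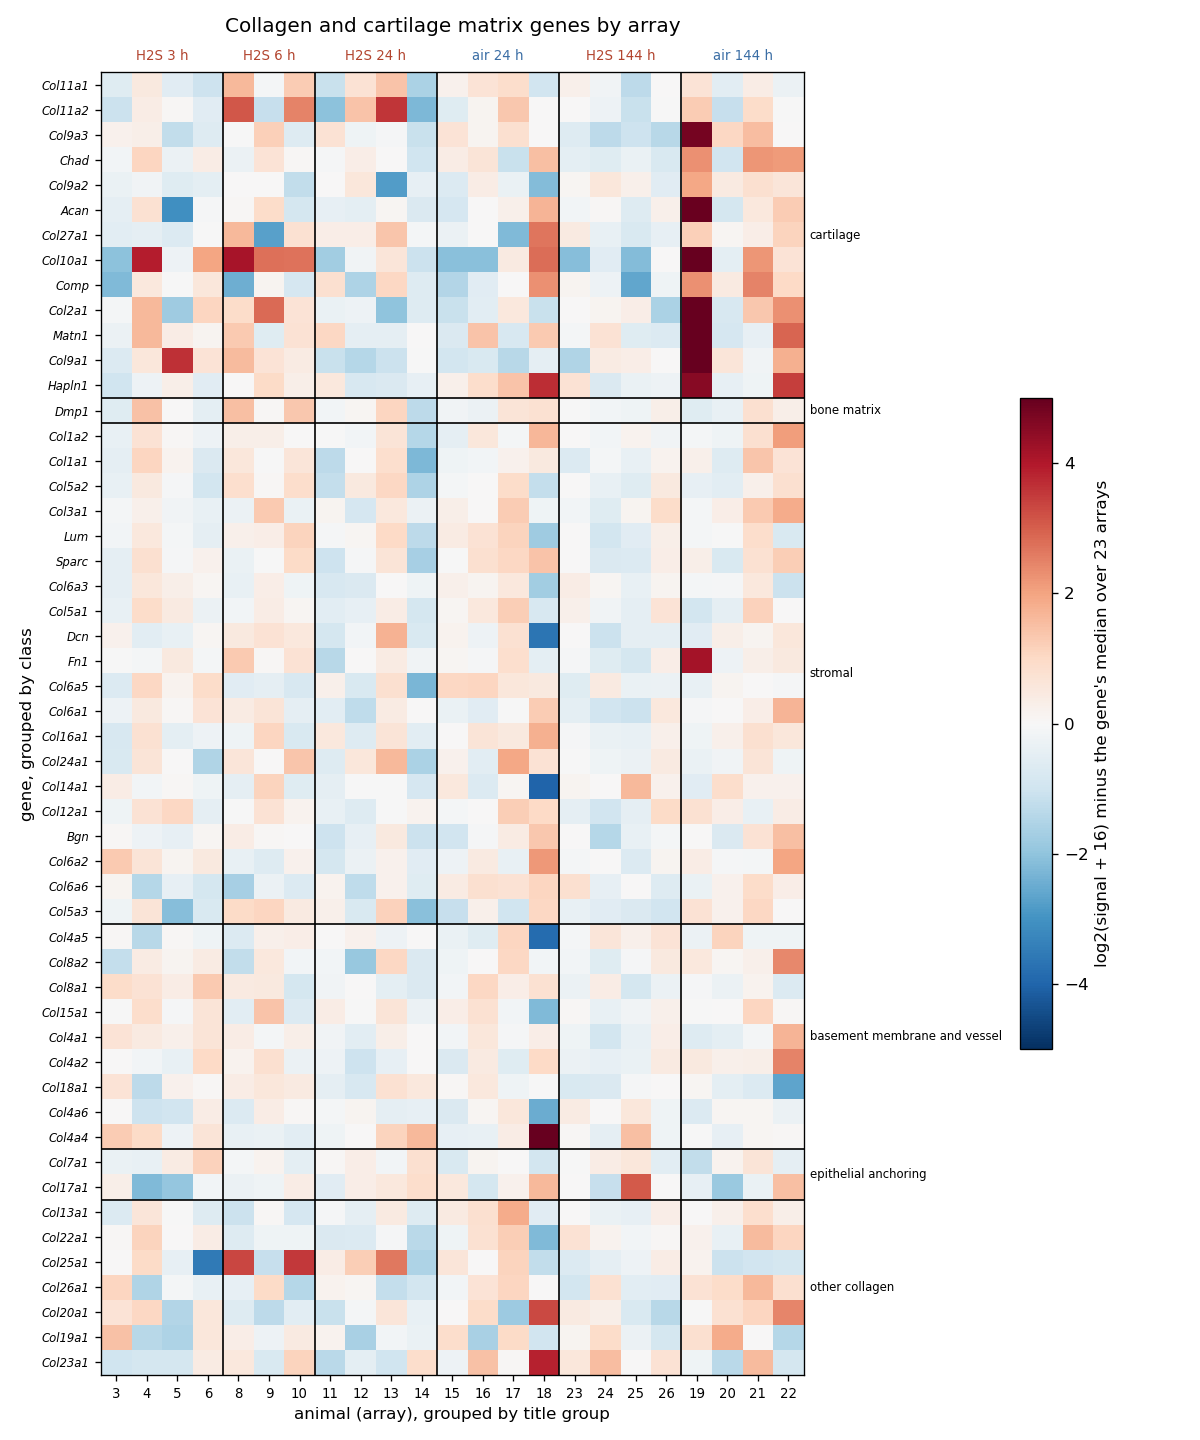
Heat map of the 52 matrix genes (rows, by class) on the 23 arrays (columns, by animal and title group), as log2(signal + 16) minus the gene's own median over the arrays, with colours ending at 5 above and below. The array of animal 19, an air animal of 144 h, is dark red for most cartilage genes, and the arrays of animals 8, 10 and 13 share high Col11a2 and Col25a1.

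The cartilage genes stood out on 1 array. Col2a1, the chain of type II collagen that defines cartilage, read 6.29, 8.01, 4.63 and 7.48 in H2S animals at 3 h, 7.33, 9.26 and 7.09 at 6 h and 6.06, 6.15, 4.39 and 5.78 at 24 h, against 5.30, 5.89, 6.93 and 5.30 in air animals at 24 h. The 144 h values were 6.41, 6.54, 6.73 and 4.81 in H2S animals, against 13.44, 5.61, 7.75 and 8.71 in air animals. The array of animal 19 lay at 13.44, with the next highest array, that of animal 9 at 6 h, at 9.26, and 6.35 was the median of the other 22 arrays. In linear units its signal ran from 5.02 to 11132 over the arrays, with a median of 68.9. In such bulk captures, fewer cells of a type and less RNA per cell cannot be told apart.

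Col10a1, the collagen of hypertrophic cartilage, had 4.66, 10.66, 6.46 and 8.69 in H2S animals at 3 h, 10.83, 9.47 and 9.42 at 6 h and 5.00, 6.55, 7.33 and 5.65 at 24 h, against 4.62, 4.65, 7.18 and 9.53 in air animals at 24 h. In the groups of 144 h it lay at 4.60, 6.16, 4.55 and 6.72 in H2S animals, against 16.03, 6.25, 8.95 and 7.41 in air animals. Its signal on the array of animal 19 was 67084, against a median of 89.5 over all arrays. Apart from animal 19, the arrays above 9 were those of animal 4 at 3 h, all 3 animals at 6 h and animal 18 in air at 24 h.

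Acan, the large proteoglycan of cartilage, read 7.87, 9.09, 5.27 and 8.28 in H2S animals at 3 h, 8.38, 9.23 and 7.46 at 6 h and 7.92, 7.85, 8.42 and 7.61 at 24 h, against 7.48, 8.32, 8.57 and 10.03 in air animals at 24 h. After 5 days, at 144 h, it had 8.18, 8.39, 7.69 and 8.57 in H2S animals, against 13.26, 7.46, 8.86 and 9.60 in air animals. Animal 19 was again highest, and a second Acan probe set followed the same arrays (r = 0.878 over 23 arrays). For Col2a1 the other 2 probe sets followed less closely (r = 0.382 and 0.678), and both read 10.26 on animal 19, and 1 of them was higher on animal 18 (10.73). The probe set with r = 0.382 had a mean of 6.778 over the arrays, against 6.779 for the one used. The Col2a1 differences printed below rest on the latter.

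Col9a3, a chain of the type IX collagen that coats type II fibrils, read 9.52, 9.59, 8.05 and 8.65 in H2S animals at 3 h, 9.28, 10.49 and 8.65 at 6 h and 9.99, 9.08, 9.24 and 8.17 at 24 h, against 9.99, 9.41, 10.10 and 9.29 in air animals at 24 h. Values at 144 h were 8.64, 7.99, 8.24 and 7.90 in H2S animals, against 14.07, 10.31, 10.82 and 9.31 in air animals, and no H2S animal reached the lowest air animal. Chad, chondroadherin, an attachment protein of chondrocytes, had 8.25, 9.50, 8.09 and 8.77 in H2S animals at 3 h, 8.10, 9.10 and 8.46 at 6 h and 8.35, 8.73, 8.40 and 7.42 at 24 h, against 8.79, 9.03, 7.29 and 9.92 in air animals at 24 h. The later groups, at 144 h, had 7.92, 7.79, 8.07 and 7.66 in H2S animals, against 10.70, 7.45, 10.59 and 10.52 in air animals, with animals 19, 21 and 22 close together and animal 20 far below them.

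Comp, cartilage oligomeric matrix protein, which is also made in tendon, had 4.73, 7.46, 6.92 and 7.54 in H2S animals at 3 h, 4.52, 7.09 and 6.13 at 6 h and 7.74, 5.42, 7.97 and 6.30 at 24 h, against 5.49, 6.37, 6.95 and 9.22 in air animals at 24 h. At 144 h it read 7.11, 6.68, 4.35 and 6.74 in H2S animals, against 9.25, 7.39, 9.43 and 7.95 in air animals. Its highest arrays were those of animals 21 and 19, followed by animal 18.

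Of the 13 cartilage genes, 9 had their highest value on the array of animal 19, which was the highest array for 5.409% of all genes. Animal 19 exceeded the median of the other 22 arrays by more than 3 (log2) for 7 of 13 cartilage genes, 53.8%, and for 54 of 14218 genes, 0.38%. These were Col10a1 (by 9.40), Col9a1 (7.63), Col2a1 (7.09), Matn1 (5.90), Acan (4.96), Col9a3 (4.78) and Hapln1, the link protein that ties aggrecan to hyaluronan (4.65). Matn1, the cartilage matrilin, read 11.57 on animal 19 and at most 8.63 elsewhere. Col9a1 read 13.28 on animal 19 and at most 9.31 elsewhere. Among the matrix genes outside the cartilage class, Fn1, fibronectin, was the 1 with such an excess: it read 14.94, 10.54, 11.09 and 11.27 in air animals at 144 h, so that animal 19 stood 4.14 above the median of the others. The other 6 cartilage genes exceeded it by less than 3: Chad and Comp by 2.32 each, Col9a2 by 2.03, Col11a2 by 1.26, Col27a1 by 1.22 and Col11a1 by 0.71.

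The mean of the 13 cartilage genes, taken relative to that of every gene on the same array, was 3.49 in animal 19 and between -1.38 and 0.56 on the other 22 arrays. Genes outside the set gave a like picture in part. Of 6 further chondrocyte markers, Cytl1 reached 15.75, Cnmd (chondromodulin) 13.13 and Ucma 10.03 on animal 19, the highest array for each. Ihh and Snorc were highest on animal 18, and Sox6 on animal 21. Ihh had its lowest value of all arrays on animal 19 (4.38). The 10 genes most like Col2a1 over the 23 arrays by Pearson r were Cytl1 (0.848), S100b (0.737), Cnmd (0.705), Fam180a, Meltf, Chadl, Wwp2, Lrp3, Miga2 and Pepd (0.675). All 10 were highest on animal 19, and without that array r lay between 0.225 and 0.588. Col2a1 itself is extreme on animal 19, so a ranking by r with it favours genes that are high there. The peak of these 10 genes on animal 19 is therefore no separate evidence. These correlations are descriptions over arrays that share 1 extreme animal. The array of animal 19 also had the lowest level of the 12 epithelium markers (1.05, against up to 3.59 in animal 6) and of the 6 bone markers (1.63, against up to 4.14 in animal 22).

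**Figure D2:**
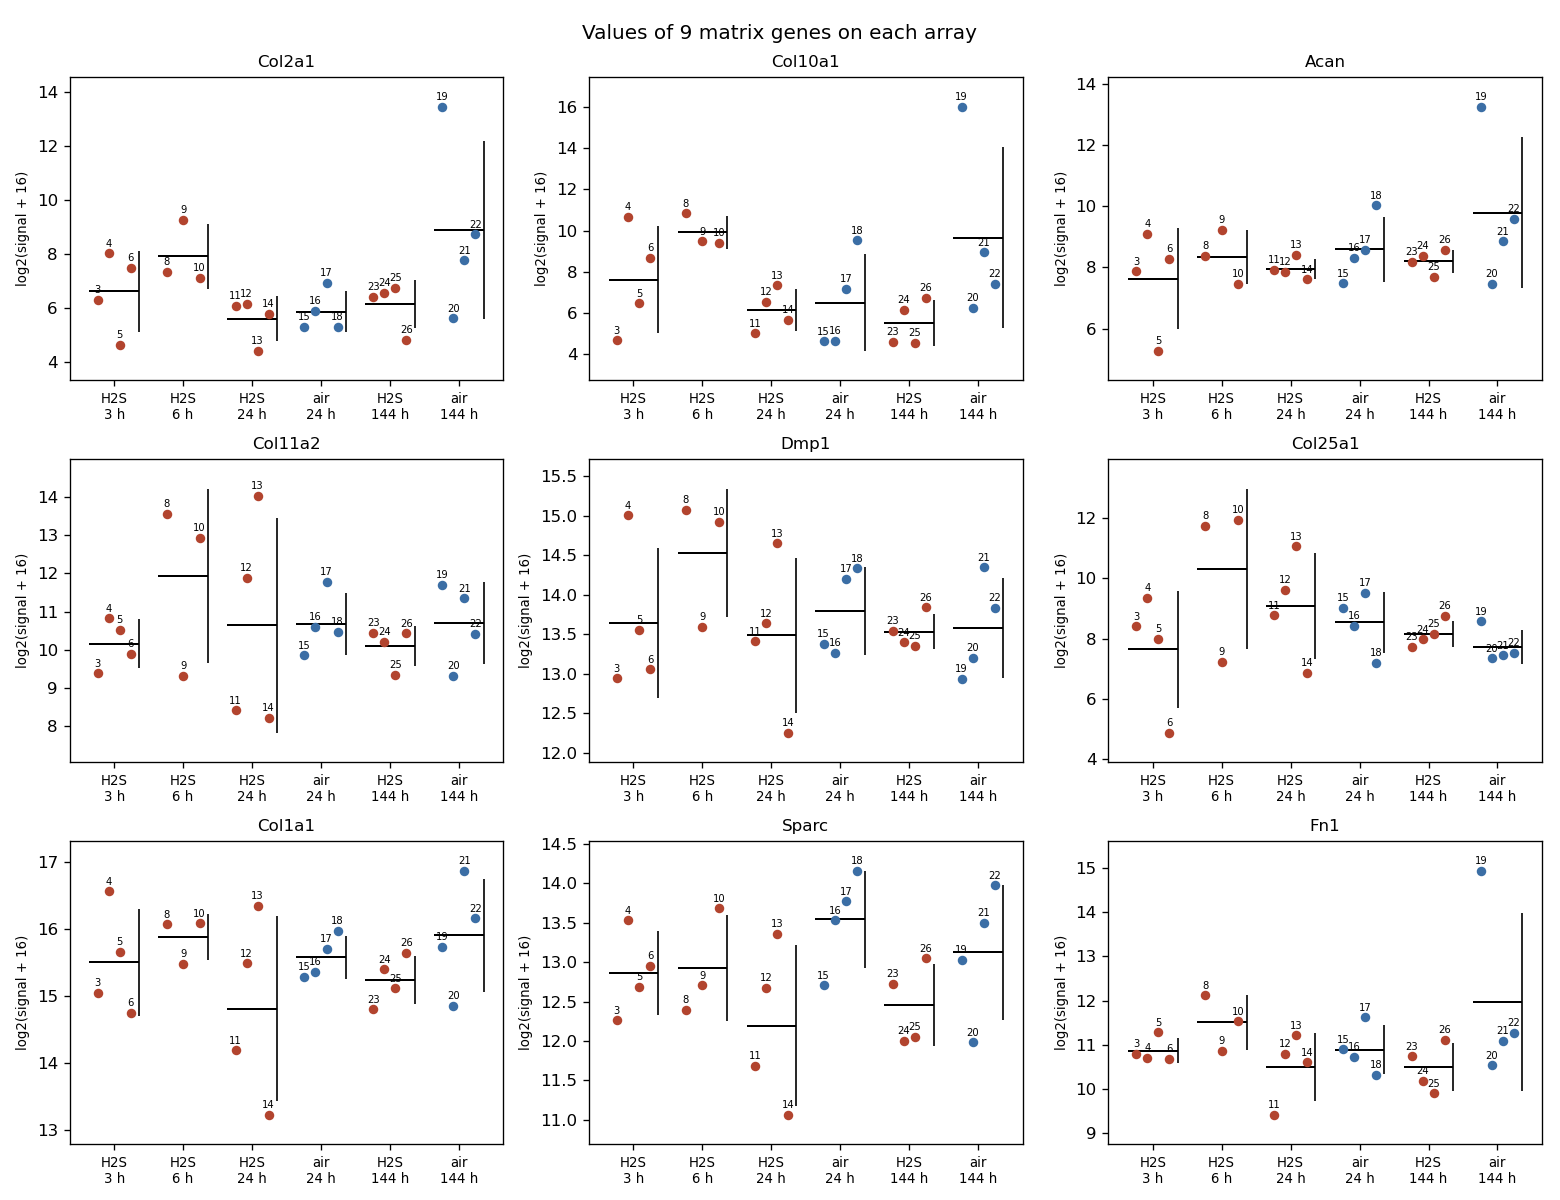
Values of 9 matrix genes, log2(signal + 16), for each animal (points, numbered), with the group mean (line) and SD (vertical bar) of 3 or 4 animals, H2S groups in red and air groups in blue. Animal 19 stands above all other arrays for Col2a1, Col10a1, Acan and Fn1, and animals 8, 10 and 13 stand high for Col11a2, Dmp1 and Col25a1. Animal 4 is also high for Dmp1 (15.00), but reads 10.83 for Col11a2 and 9.35 for Col25a1.

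Dmp1, dentin matrix protein, a mineralisation gene of osteocytes and odontoblasts, followed other arrays. It read 12.94, 15.00, 13.55 and 13.06 in H2S animals at 3 h, 15.07, 13.60 and 14.92 at 6 h and 13.41, 13.64, 14.65 and 12.25 at 24 h, against 13.38, 13.26, 14.20 and 14.33 in air animals at 24 h. The 144 h values were 13.54, 13.40, 13.35 and 13.84 in H2S animals, against 12.93, 13.20, 14.34 and 13.83 in air animals. The lowest array, animal 14, still had a signal of 4860, and the highest, animal 8, had 34461. Animals 8, 4, 10 and 13 were highest, and animal 19 was among the lower arrays.

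Type XI collagen is known from cartilage, but its 2 chains had a higher r with Dmp1 than with Col2a1. Col11a2 read 9.39, 10.83, 10.52 and 9.90 in H2S animals at 3 h, 13.55, 9.31 and 12.93 at 6 h and 8.42, 11.89, 14.03 and 8.22 at 24 h, against 9.86, 10.60, 11.79 and 10.47 in air animals at 24 h. In the groups of 144 h it lay at 10.45, 10.21, 9.34 and 10.43 in H2S animals, against 11.71, 9.32, 11.35 and 10.42 in air animals. Its 4 highest arrays, animals 13, 8, 10 and 12, are all of H2S animals at 6 h and 24 h, yet animals 9, 11 and 14 of the same groups were the 3 lowest of all arrays with 9.31, 8.42 and 8.22. Col11a1 had 12.14, 13.20, 12.15 and 11.71 in H2S animals at 3 h, 14.36, 12.64 and 13.99 at 6 h and 11.62, 13.45, 14.15 and 11.13 at 24 h, against 12.96, 13.43, 13.59 and 11.76 in air animals at 24 h. After 5 days, at 144 h, it had 12.97, 12.54, 11.42 and 12.73 in H2S animals, against 13.40, 12.21, 13.10 and 12.42 in air animals. Over the 23 arrays the Pearson r with Dmp1 was 0.734 for Col11a2 and 0.657 for Col11a1, and that with Col2a1 was 0.0945 and 0.171.

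Col25a1, a membrane-spanning collagen known from neurons and developing muscle, had its high values on the same arrays as Col11a2. It read 8.40, 9.35, 7.98 and 4.86 in H2S animals at 3 h, 11.75, 7.23 and 11.95 at 6 h and 8.77, 9.63, 11.06 and 6.85 at 24 h, against 9.01, 8.41, 9.52 and 7.19 in air animals at 24 h. Values at 144 h were 7.73, 7.97, 8.16 and 8.76 in H2S animals, against 8.57, 7.34, 7.44 and 7.53 in air animals. Animals 10, 8 and 13 were highest, animal 6 lowest. Animal 4, at 15.00 for Dmp1, read 9.35 here. The r of Col25a1 with Dmp1 was 0.654. Col24a1, a fibrillar collagen that in mouse marks forming bone, had r = 0.817 with Dmp1, Col1a1 had 0.794 and Col5a2 0.701. Col3a1, the fibrillar collagen of soft tissue, had 0.206.

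Without animals 18, 19 and 22, r with Dmp1 over 20 arrays was 0.821 for Col11a2, 0.807 for Col11a1, 0.743 for Col25a1, 0.819 for Col24a1, 0.845 for Col1a1, 0.721 for Col10a1 and 0.255 for Col2a1. Col10a1 had r = 0.359 with Dmp1 over all 23 arrays and 0.731 without animal 19 alone. Its r with Col2a1 was 0.748 over 23 arrays and 0.486 without animal 19. The 10 genes most like Col1a1 were Thbs4 (0.788), Pde4dip, Dysf, P4ha1, Clec11a, Pla2g5, Slc39a14, Rassf4, Pcolce and Cgref1 (0.731). P4ha1 is a subunit of the prolyl hydroxylase of collagen and Pcolce the enhancer of procollagen cleavage. Dmp1 was added to this search after its values were seen. Its 10 leading genes were Slc39a14 (0.827), Akap7, Dok5, C1qtnf5, Dysf (0.791), Tnc, Uggt2, Jam2, Itga11 and Phex (0.766). Phex is an endopeptidase of osteocytes. The bone markers Bglap, Ibsp, Spp1, Alpl and Mepe were not among these 10. All of these r values share the arrays' scaling and amplification, and no p is given.

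**Figure D3:**
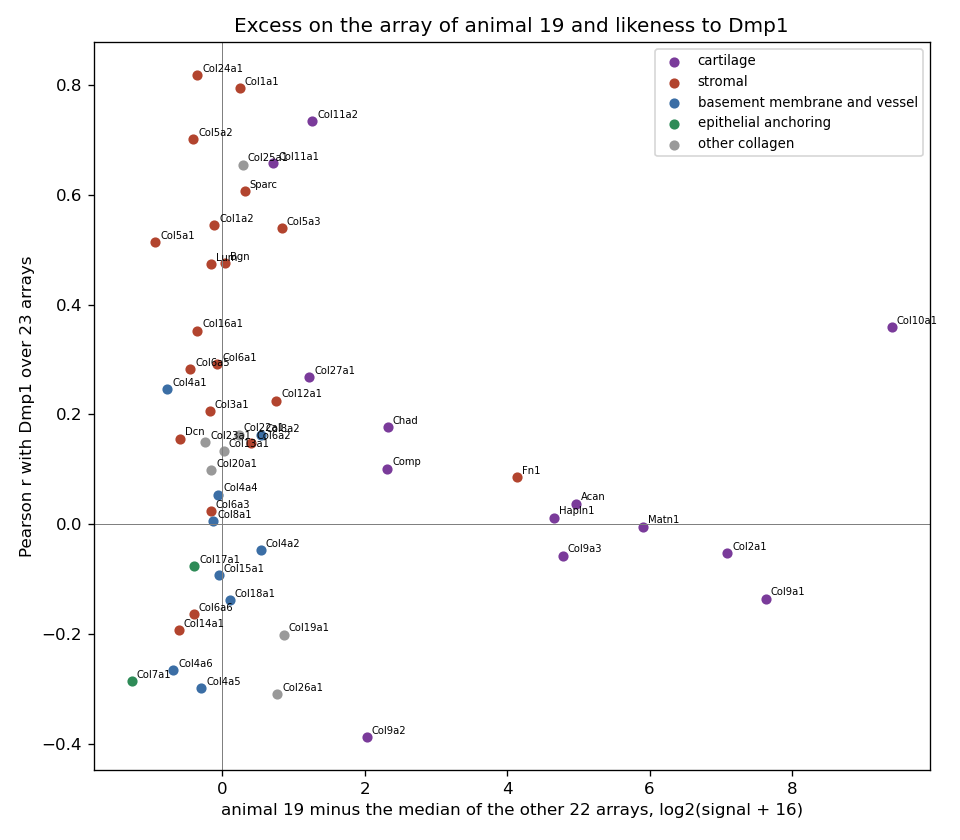
For each matrix gene, the value on the array of animal 19 minus the median of the other 22 arrays (horizontal, log2) against the Pearson r of the gene with Dmp1 over 23 arrays (vertical), coloured by class, with Dmp1 itself left out. Col10a1 (9.40), Col9a1 (7.63) and Col2a1 (7.09) lie far to the right, while Col24a1 (r 0.817), Col1a1 (0.794) and Col11a2 (0.734) lie at the top left. Without animal 19 the r of Col10a1 with Dmp1 was 0.731, against 0.359 here.

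The brightest stromal collagens, Col1a2, Col1a1, Col5a2 and Col3a1, lay above the array's own median on all arrays. Some others did not. Col5a3 fell to a signal of 28.5 and Col14a1 to 47.0, under the lowest array median of 136. Col1a1, the main chain of type I collagen, read 15.05, 16.56, 15.66 and 14.75 in H2S animals at 3 h, 16.07, 15.48 and 16.08 at 6 h and 14.19, 15.49, 16.34 and 13.23 at 24 h, against 15.29, 15.36, 15.70 and 15.97 in air animals at 24 h. The later groups, at 144 h, had 14.80, 15.40, 15.11 and 15.64 in H2S animals, against 15.73, 14.86, 16.87 and 16.16 in air animals. Its signal ran from 9584 in animal 14 to 119443 in animal 21, with a median of 45884. Col1a2, the partner chain, had 15.72, 16.80, 16.15 and 15.82 in H2S animals at 3 h, 16.40, 16.40 and 16.13 at 6 h and 16.07, 15.94, 16.73 and 14.68 at 24 h, against 15.64, 16.65, 15.98 and 17.77 in air animals at 24 h. At 144 h it read 16.09, 15.96, 16.26 and 15.91 in H2S animals, against 16.00, 15.88, 16.91 and 18.17 in air animals, and the 2 arrays that stood apart, of animals 22 and 18, were its highest.

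Col3a1 had 13.20, 13.56, 13.10 and 12.92 in H2S animals at 3 h, 13.02, 14.62 and 12.98 at 6 h and 13.45, 12.47, 13.84 and 13.01 at 24 h, against 13.58, 13.30, 14.58 and 13.07 in air animals at 24 h. The 144 h values were 13.15, 12.71, 13.45 and 14.21 in H2S animals, against 13.20, 13.63, 14.59 and 15.15 in air animals. The groups overlapped at both times, with animal 9 the highest H2S array. Col5a2, a chain that sets the width of collagen fibres, read 13.94, 14.80, 14.25 and 13.40 in H2S animals at 3 h, 15.14, 14.37 and 15.17 at 6 h and 13.10, 14.80, 15.35 and 12.75 at 24 h, against 14.20, 14.33, 15.21 and 13.12 in air animals at 24 h. In the groups of 144 h it lay at 14.30, 13.94, 13.70 and 14.78 in H2S animals, against 13.90, 13.75, 14.53 and 15.09 in air animals. Animal 14 had the lowest value of Col5a2, Col1a1 and Col1a2.

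Sparc, osteonectin, a collagen-binding glycoprotein of bone and stroma, had 12.26, 13.53, 12.69 and 12.95 in H2S animals at 3 h, 12.40, 12.71 and 13.68 at 6 h and 11.68, 12.68, 13.36 and 11.06 at 24 h, against 12.70, 13.53, 13.77 and 14.16 in air animals at 24 h. After 5 days, at 144 h, it had 12.73, 12.00, 12.05 and 13.05 in H2S animals, against 13.03, 11.98, 13.50 and 13.98 in air animals. Animals 11 and 14 were lowest, and the groups overlapped at both times. Fn1 read 10.79, 10.71, 11.28 and 10.69 in H2S animals at 3 h, 12.12, 10.87 and 11.53 at 6 h and 9.41, 10.80, 11.21 and 10.60 at 24 h, against 10.89, 10.73, 11.62 and 10.32 in air animals at 24 h. Values at 144 h were 10.74, 10.19, 9.90 and 11.11 in H2S animals, against 14.94, 10.54, 11.09 and 11.27 in air animals, where animal 19 stood alone.

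The mean level of the 20 stromal genes relative to all genes ran from 1.85 in animal 14 to 3.40 in animal 13. By group it was 2.75 ± 0.27 in H2S animals at 3 h, 3.02 ± 0.068 at 6 h and 2.49 ± 0.66 at 24 h, against 3.01 ± 0.26 in air animals at 24 h (SD, n = 4, 3, 4 and 4). At 144 h it was 2.64 ± 0.29 in H2S animals, against 3.05 ± 0.24 in air animals (SD, n = 4 each). The mean of the stromal genes lay above the mean of the array's genes on every array. The cartilage level was -0.68 ± 0.61, -0.0085 ± 0.32 and -0.90 ± 0.34 in H2S animals at 3 h, 6 h and 24 h, against -0.52 ± 0.57 in air animals at 24 h. At 144 h it was -1.01 ± 0.27 in H2S animals and 0.84 ± 1.86 in air animals, with animal 19 at 3.49.

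**Figure D4:**
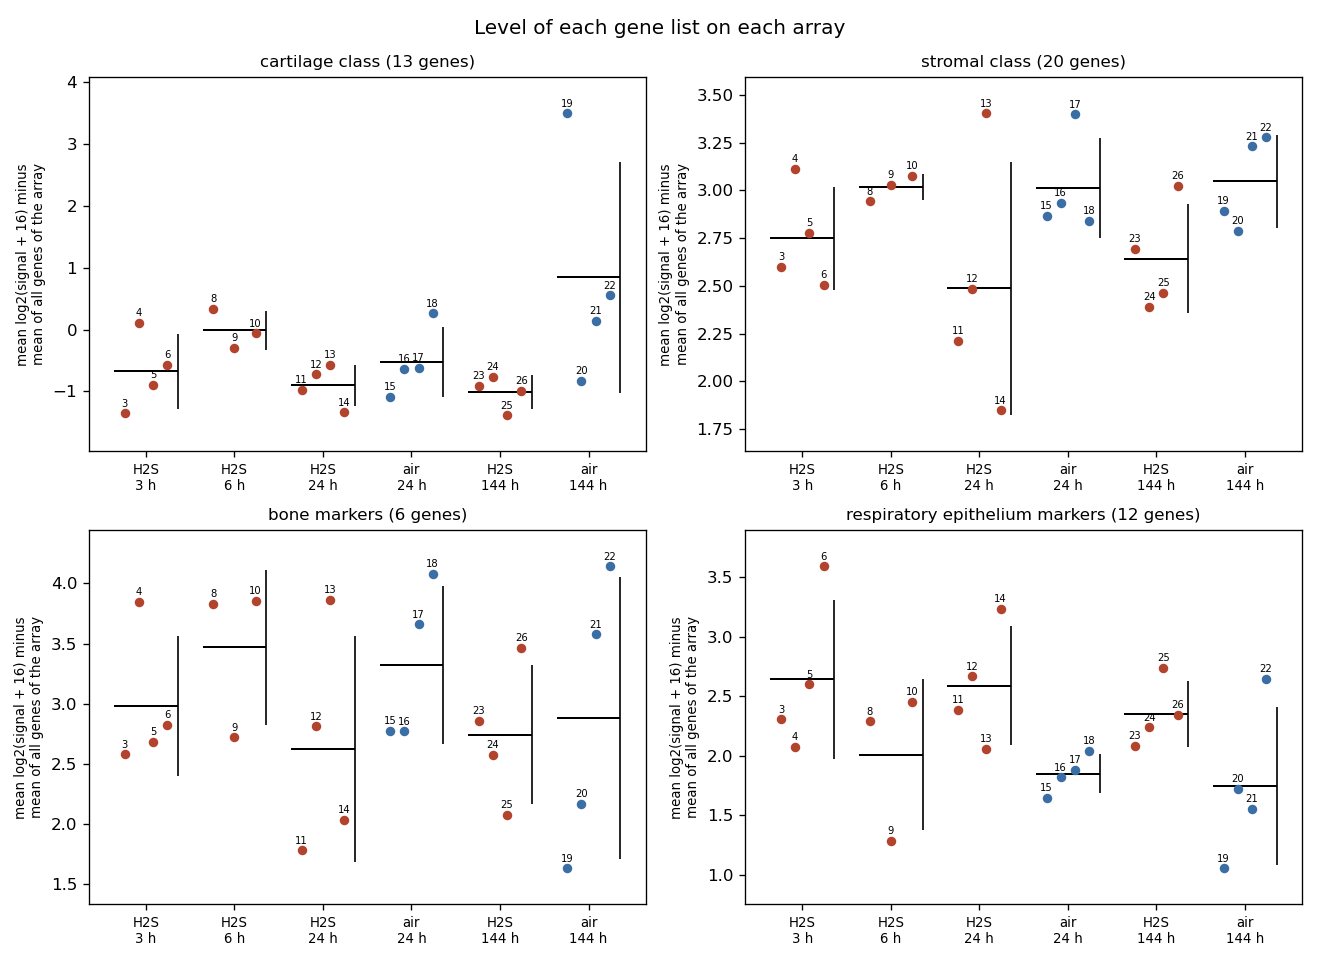
Level of 4 gene lists for each animal (points, numbered), as the mean log2(signal + 16) of the list relative to that of every gene on the same array, with group mean (line) and SD (bar), H2S groups in red and air groups in blue. The cartilage level of animal 19 (3.49) is apart from all others (-1.38 to 0.56). The epithelium levels of H2S animals at 3 h and at 24 h all lie above those of the 24 h air animals.

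Of the genes of basement membranes and vessels, Col4a5, Col8a2, Col8a1 and Col15a1 had the highest means. Col4a5, a network collagen of basement membranes, read 10.69, 9.24, 10.70 and 10.39 in H2S animals at 3 h, 9.95, 10.87 and 10.96 at 6 h and 10.62, 10.83, 10.36 and 10.65 at 24 h, against 10.30, 10.01, 11.68 and 6.76 in air animals at 24 h. The later groups, at 144 h, had 10.53, 11.21, 10.88 and 11.31 in H2S animals, against 10.34, 11.74, 10.40 and 10.40 in air animals. All arrays lay between 9.24 and 11.74 apart from animal 18 at 6.76. Col15a1, which links basement membrane to stroma, had 9.03, 9.96, 9.01 and 9.72 in H2S animals at 3 h, 8.54, 10.49 and 8.36 at 6 h and 9.42, 9.04, 9.71 and 8.78 at 24 h, against 9.40, 9.81, 8.92 and 6.87 in air animals at 24 h. At 144 h it read 9.12, 8.70, 8.89 and 9.32 in H2S animals, against 9.04, 9.06, 10.14 and 9.11 in air animals, again with animal 18 lowest.

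Col8a1 and Col8a2 encode the short-chain collagen of vessel walls and other sheet-like membranes. Col8a1 had 9.99, 9.82, 9.47 and 10.41 in H2S animals at 3 h, 9.53, 9.58 and 8.23 at 6 h and 8.92, 9.09, 8.61 and 8.38 at 24 h, against 8.94, 10.15, 9.41 and 9.85 in air animals at 24 h. The 144 h values were 8.79, 9.47, 8.20 and 8.78 in H2S animals, against 9.04, 8.81, 9.26 and 8.39 in air animals. Col8a2 had 8.50, 10.11, 9.85 and 10.12 in H2S animals at 3 h, 8.48, 10.22 and 9.58 at 6 h and 9.55, 7.79, 10.73 and 8.98 at 24 h, against 9.47, 9.70, 10.71 and 9.56 in air animals at 24 h. In the groups of 144 h it lay at 9.54, 9.10, 9.64 and 10.17 in H2S animals, against 10.21, 9.79, 9.94 and 12.10 in air animals, with animal 22 highest.

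The anchoring collagens belong to the basal cells of the epithelium. Col7a1, the anchoring fibril, read 8.30, 8.26, 9.04 and 9.80 in H2S animals at 3 h, 8.55, 8.82 and 8.16 at 6 h and 8.70, 8.98, 8.52 and 9.43 at 24 h, against 7.90, 8.77, 8.64 and 7.73 in air animals at 24 h. After 5 days, at 144 h, it had 8.62, 9.03, 9.21 and 8.13 in H2S animals, against 7.40, 8.81, 9.29 and 8.20 in air animals. Its 2 highest arrays, animals 6 and 14, also had the highest level of the epithelium markers (3.59 and 3.24), and its lowest, animal 19, the lowest. Col17a1, a hemidesmosome protein, had 7.12, 4.59, 4.86 and 6.66 in H2S animals at 3 h, 6.53, 6.59 and 7.16 at 6 h and 6.25, 7.16, 7.34 and 7.68 at 24 h, against 7.32, 5.94, 7.01 and 8.42 in air animals at 24 h. Values at 144 h were 6.81, 5.65, 9.88 and 6.81 in H2S animals, against 6.42, 4.95, 6.49 and 8.30 in air animals. Animal 25 was highest, which was also the highest array for the basal keratins Krt5 and Krt14 and for Tp63 (10.94), the basal cell factor.

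Of the other collagens, Col13a1, a membrane-spanning collagen of cell adhesions, had 10.91, 12.22, 11.60 and 10.95 in H2S animals at 3 h, 10.54, 11.65 and 10.75 at 6 h and 11.56, 11.16, 12.06 and 10.96 at 24 h, against 12.06, 12.42, 13.47 and 11.03 in air animals at 24 h. The later groups, at 144 h, had 11.61, 11.29, 11.20 and 11.94 in H2S animals, against 11.62, 11.86, 12.45 and 11.89 in air animals. Animal 17 was its highest array. Col22a1, a collagen of tissue junctions, read 9.20, 10.27, 9.14 and 9.51 in H2S animals at 3 h, 8.50, 8.91 and 8.94 at 6 h and 8.44, 8.45, 9.09 and 7.81 at 24 h, against 8.93, 9.91, 10.39 and 6.95 in air animals at 24 h. At 144 h it read 9.88, 9.31, 9.01 and 9.19 in H2S animals, against 9.34, 8.78, 10.72 and 10.22 in air animals. Col26a1 had 7.64, 5.07, 6.49 and 6.22 in H2S animals at 3 h, 6.17, 7.52 and 5.14 at 6 h and 6.77, 6.66, 5.40 and 5.67 at 24 h, against 6.46, 7.25, 7.65 and 6.58 in air animals at 24 h. The 144 h values were 5.68, 7.32, 6.05 and 6.02 in H2S animals, against 7.31, 7.51, 8.20 and 7.39 in air animals.

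No matrix gene passed the test in any comparison. Limma called 0 of 46 tested genes at an adjusted p of 0.05, where the call rate over 19822 probe sets was 0.0807% at 3 h, 0.00504% at 6 h, 0.0101% at 24 h and 0% at 144 h, in air at 144 h against air at 24 h, and for the interaction of exposure with time. Counts at an unadjusted p under 0.05 are therefore descriptions. Changes below are differences of group means on the log2(signal + 16) scale with limma's SE. Where group means lie under 6 their size rests on the added 16.

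At 3 h, against air at 24 h, 2 of 46 genes had an unadjusted p under 0.05, both on the negative side, where the rate over all probe sets was 3.79%. None lay on the positive side, where it was 6%, and no tested gene lay above all air animals (3.02% of probe sets). Col6a6, a chain of the beaded type VI collagen, averaged 7.54 ± 0.66 in H2S animals and 8.93 ± 0.29 in air animals (SD, n = 4 each), a difference of -1.40 (SE 0.428, adjusted p = 0.334). Its values were 8.32, 6.75, 7.77 and 7.31 in H2S animals, all below the 8.58, 8.99, 8.89 and 9.28 of air animals, and it was the 1 tested gene without overlap on that side (1.55% of probe sets). Hapln1 differed by -1.96 (SE 0.846, adjusted p = 0.472), with 4.44, 5.18, 5.72 and 4.86 in H2S animals, against 5.70, 6.33, 6.87 and 9.13 in air animals, the last from the array of animal 18, without which the gene fell below the filter. The median difference was -0.21 over the stromal genes and -0.35 over the cartilage genes, beside 0.060 over all 14218 genes, and without animal 18 it was -0.29 and 0.28. The cartilage median was 0.026 without animal 3 and 0.098 without animals 6, 14 and 18. The stromal median was -0.017 without animal 6, -0.077 without animal 17, -0.088 without animal 3 and -0.38 without animal 4. The remaining genes with the smallest p of their class were Col15a1 (0.68, SE 0.527, adjusted p = 0.656, difference 0.051 without animal 18), Col8a1 (0.33, SE 0.369, adjusted p = 0.760, difference 0.12 without animal 15), Dmp1 (-0.16, SE 0.504, adjusted p = 0.928, difference 0.076 without animal 3), Acan (-0.97, SE 0.882, adjusted p = 0.698, difference -0.19 without animal 5), Col17a1 (-1.36, SE 0.779, adjusted p = 0.557), Col7a1 (0.59, SE 0.421, adjusted p = 0.636, difference 0.27 without animal 6), Col13a1 (-0.83, SE 0.435, adjusted p = 0.538, difference -0.42 without animal 17), Col26a1 (-0.63, SE 0.536, adjusted p = 0.684, difference -0.20 without animal 4) and Col16a1 (-0.94, SE 0.454, adjusted p = 0.510, difference -0.59 without animal 18).

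At 6 h, 3 of 46 genes had an unadjusted p under 0.05 on the negative side (2.36% of probe sets) and none on the positive side (3.45%). Col6a6 differed by -1.63 (SE 0.463, adjusted p = 0.781), with 6.53, 7.88 and 7.50 in the H2S animals. Col6a5, a further type VI chain, differed by -1.40 (SE 0.525, adjusted p = 0.781), with 10.26, 10.41 and 10.02 in H2S animals, against 11.86, 11.92, 11.40 and 11.33 in air animals. Neither overlapped with air (2.02% of probe sets), and the third gene, Col13a1, differed by -1.26 (SE 0.470, adjusted p = 0.781). The 3 and 6 h values of Col6a6 are set against the same 4 air animals. Col2a1, on the probe set used, was the 1 of the 46 tested genes above all air animals (2.49% of probe sets), with 7.33, 9.26 and 7.09 in H2S animals and a difference of 2.04 (SE 1.16, adjusted p = 0.781). Col9a1, which has no test, did not overlap either, with 6.57 ± 0.61 in H2S animals and 4.79 ± 0.38 in air animals (SD, n = 3 and 4). Col10a1 averaged 9.91 ± 0.80 in H2S animals and 6.49 ± 2.35 in air animals (SD, n = 3 and 4), a difference of 3.41 (SE 1.67, adjusted p = 0.781), and animal 18 overlapped with H2S. Col25a1 differed by 1.78 (SE 1.05, adjusted p = 0.781, difference 0.96 without animal 10), from a group split between 11.75 and 11.95 in animals 8 and 10 and 7.23 in animal 9. With the RNA integrity number as covariate it differed by 4.27 (SE 0.736, adjusted p = 0.0272 with limma), and was the 1 matrix gene called. That fit leaves out animals 5, 6, 9 and 15, which have no such number, so that 2 H2S animals and 3 air animals remain here. Leaving out animal 9 alone gave 3.32 (adjusted p = 0.319).

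The 3 animals at 6 h were unlike in what accompanied these genes. Animals 8 and 10 had bone marker levels of 3.83 and 3.85 and animal 9 had 2.72. Animal 9 was the highest of them for Col2a1, Col3a1 and Col14a1, and for the level of fibroblast markers (2.29, against 1.79 and 1.51), vessel markers (1.02, against 0.41 and -0.14) and leukocyte markers (2.59, against 0.43 and 0.81). The part of these cell types in the differences was not tested. The median difference at 6 h was 0.020 over stromal and 0.16 over cartilage genes, beside 0.018 over all genes, and both lie near 0. The cartilage median was 0.70 without animal 9, -0.12 without animal 15, -0.090 without animal 17, 0.017 without animal 8, 0.53 without animal 16 and 0.34 without animal 18. The stromal median lay between -0.11 and 0.20 as single animals were left out. The remaining genes with the smallest p of their class were Col4a5 (0.91, SE 0.708, adjusted p = 0.784, difference -0.068 without animal 18), Col8a1 (-0.47, SE 0.399, adjusted p = 0.790, difference -0.028 without animal 10), Dmp1 (0.74, SE 0.544, adjusted p = 0.782, difference 0.46 without animal 8), Col7a1 (0.25, SE 0.455, adjusted p = 0.884, difference 0.074 without animal 18) and Col17a1 (-0.41, SE 0.842, adjusted p = 0.899, difference 0.0078 without animal 18).

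At 24 h, 18 of 20 stromal genes had a lower mean in H2S animals than in air animals, as did 6703 of all 14218 genes. The stromal median difference was -0.61, while the median over all genes was 0.042. Over all 52 genes, 43 had a lower mean and the median was -0.41, and for 13 cartilage genes the median was -0.26, or -0.59 without animal 13, -0.48 without animal 15, -0.45 without animal 12, -0.41 without animal 11, -0.15 without animal 18 and -0.060 without animals 6, 14 and 18. Of 46 tested genes, 5 had an unadjusted p under 0.05 on the negative side (3.29% of probe sets) and none on the positive side (4.8%), and no tested gene lay above all air animals (2.22%). Sparc averaged 12.20 ± 1.02 in H2S animals and 13.54 ± 0.62 in air animals (SD, n = 4 each), a difference of -1.35 (SE 0.50, adjusted p = 0.606). The Sparc difference ran from -1.74 to -0.97 as single animals were left out, and was -0.76 without animals 6, 14 and 18. Col6a5 differed by -1.29 (SE 0.486, adjusted p = 0.606, difference -0.70 without animal 14), with 11.08, 10.07, 11.63 and 8.56 in H2S animals. Col6a6 differed by -1.12 (SE 0.428, adjusted p = 0.612), with 8.36, 6.90, 8.39 and 7.60 in H2S animals, the 1 tested gene without overlap (1.57% of probe sets). Hapln1, which passed the filter only through air arrays, and Col8a1 were the others. Col1a1 differed by -0.77 (SE 0.536, adjusted p = 0.662, difference -0.24 without animal 14). The 2 stromal genes with a higher mean in H2S, Dcn (0.73) and Col14a1 (0.69), had their lowest value on the array of animal 18, and both differences were negative without animals 18 and 22 (-0.24 and -0.31). The remaining genes with the smallest p of their class were Col8a1 (-0.84, SE 0.369, adjusted p = 0.612), Col4a5 (0.93, SE 0.655, adjusted p = 0.664, difference -0.046 without animal 18), Dmp1 (-0.31, SE 0.504, adjusted p = 0.847, difference 0.10 without animal 14), Hapln1 (-1.92, SE 0.846, adjusted p = 0.612), Chad (-0.53, SE 0.599, adjusted p = 0.768, difference -0.15 without animal 18), Col7a1 (0.65, SE 0.421, adjusted p = 0.640), Col17a1 (-0.066, SE 0.779, adjusted p = 0.983, difference 0.35 without animal 18), Col13a1 (-0.81, SE 0.435, adjusted p = 0.612, difference -0.40 without animal 17) and Col26a1 (-0.86, SE 0.536, adjusted p = 0.633).

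The stromal level at 24 h was 2.21, 2.48, 3.40 and 1.85 in H2S animals, against 2.87, 2.94, 3.40 and 2.84 in air animals. Animals 14 and 11 were lowest and animal 13 equalled the highest air animal. The level of the epithelium markers was 2.38, 2.67, 2.06 and 3.24 in H2S animals, all above the 1.64, 1.82, 1.88 and 2.04 of air animals. The H2S animals of 3 h, with 2.30, 2.07, 2.60 and 3.59, also all lay above these air animals. There the stromal median difference was -0.21. Among the epithelium markers at 24 h, Krt19 differed by 2.03 (SE 0.612, adjusted p = 0.520) and Tp63 by 1.08. The level of the bone markers was 1.78, 2.81, 3.86 and 2.04 in H2S animals, against 2.77, 2.77, 3.66 and 4.08 in air animals, and Spp1, osteopontin, differed by -1.70 (SE 0.484, adjusted p = 0.447). Animal 14 had the lowest value of all arrays for 9 of 52 matrix genes (for 4.213% of all genes) and a high epithelium level, 3.24. Without it the stromal median was -0.40, and without animals 6, 14 and 18 it was -0.24. RNA integrity numbers were 5.5, 4.2, 2.6 and 10 in H2S animals 11, 12, 13 and 14. They were 4.2, 5.1 and 2.6 in air animals 16, 17 and 18, and animal 15 has none. The part of the epithelial share or of RNA quality in the difference was not tested.

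At 144 h the cartilage genes had the largest median difference of the 6 classes. All 13 had a lower mean in H2S animals than in air animals, as did 7758 of all 14218 genes. The cartilage median difference was -1.99 beside -0.065 over all genes. Without animal 19 the median was -0.93. Over the 46 tested genes, 9 had an unadjusted p under 0.05 on the negative side (4% of probe sets) and none on the positive side (3.8%): Col9a3, Chad, Comp, Col10a1, Col2a1, Hapln1, Fn1, Col26a1 and Col4a2. Of these, Hapln1 passed the filter only through air arrays. Col9a3 averaged 8.19 ± 0.33 in H2S animals and 11.13 ± 2.06 in air animals (SD, n = 4 each), a difference of -2.94 (SE 0.684, adjusted p = 0.553), and -1.96 without animal 19. Chad differed by -1.96 (SE 0.599, adjusted p = 0.580), and by -1.66 without animal 19. Comp differed by -2.29 (SE 0.828, adjusted p = 0.584), and by -2.04 without animal 19. For Col10a1, with 5.51 ± 1.10 in H2S animals and 9.66 ± 4.39 in air animals, the difference was -4.15 (SE 1.54, adjusted p = 0.600), and -2.03 without animal 19. For Col2a1, with 6.12 ± 0.88 in H2S animals and 8.88 ± 3.31 in air animals, it was -2.76 (SE 1.07, adjusted p = 0.600), and -1.23 without animal 19. Acan differed by -1.59 (SE 0.882, adjusted p = 0.684), and by -0.43 without animal 19. The remaining genes with the smallest p of their class were Col8a2 (-0.90, SE 0.581, adjusted p = 0.720, difference -0.37 without animal 22), Col17a1 (0.75, SE 0.779, adjusted p = 0.844, difference -0.12 without animal 25), Col7a1 (0.32, SE 0.421, adjusted p = 0.884, difference -0.018 without animal 19), Col13a1 (-0.45, SE 0.435, adjusted p = 0.828, difference -0.28 without animal 21) and Col6a1 (-1.0, SE 0.486, adjusted p = 0.645, difference -0.59 without animal 22).

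Among tested genes, groups that did not overlap at 144 h, all with H2S below air (3.43% of probe sets), were those of Col9a3, Comp and Col5a3. Col5a3, a minor type V chain, read 7.25, 7.03, 6.87 and 6.66 in H2S animals, against 8.34, 7.83, 8.63 and 7.61 in air animals. Fn1 differed by -1.47 (SE 0.651, adjusted p = 0.624), and by -0.48 without animal 19. No tested gene lay above all air animals (2.5% of probe sets). Among 20 stromal genes 17 had a lower mean in H2S animals (7758 of 14218 over all genes), with a median of -0.56. The stromal median was -0.60 without animal 19, -0.39 without animals 18 and 22, and -0.22 with each array centred on its median. Col1a1 differed by -0.66 (SE 0.536, adjusted p = 0.788, difference -0.34 without animal 21) and Col3a1 by -0.76 (SE 0.475, adjusted p = 0.712, difference -0.43 without animal 22). Col4a2, a basement membrane chain, differed by -1.01 (SE 0.486, adjusted p = 0.639, difference -0.47 without animal 22). Col26a1 differed by -1.34 (SE 0.536, adjusted p = 0.602), with 5.68, 7.32, 6.05 and 6.02 in H2S animals, against 7.31, 7.51, 8.20 and 7.39 in air animals, 1 H2S animal among the air values. Dmp1 differed by -0.044 (SE 0.504, adjusted p = 0.991, difference 0.21 without animal 21).

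Other lists were set beside these genes at 144 h, and limma called 0 of their genes. Of 6 chondrocyte markers outside the set, Cytl1 differed by -2.95 (SE 0.914, adjusted p = 0.580, difference -1.47 without animal 19) and Cnmd by -2.59 (SE 1.13, adjusted p = 0.624, difference -1.13 without animal 19). The epithelium level was 2.08, 2.24, 2.74 and 2.34 in H2S animals, against 1.05, 1.72, 1.56 and 2.65 in air animals. That of the 4 nerve and Schwann cell markers was -1.45, -0.74, -1.02 and -1.67 in H2S animals, all below the -0.027, 0.16, -0.72 and 0.30 of air animals. Of these markers, S100b, which chondrocytes also make, differed by -1.85 (SE 0.599, adjusted p = 0.580) and Sox10 by -1.73, and -1.09 without animal 26. S100b and Sox10 were both highest on the array of animal 19 (10.80 and 10.55). RNA integrity numbers were 4.8, 5.1, 4.5 and 1.7 in H2S animals, against 5.6, 6.4, 5.1 and 6.9 in air animals. The part of cell content or RNA quality in the differences was not tested.

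**Figure D5:**
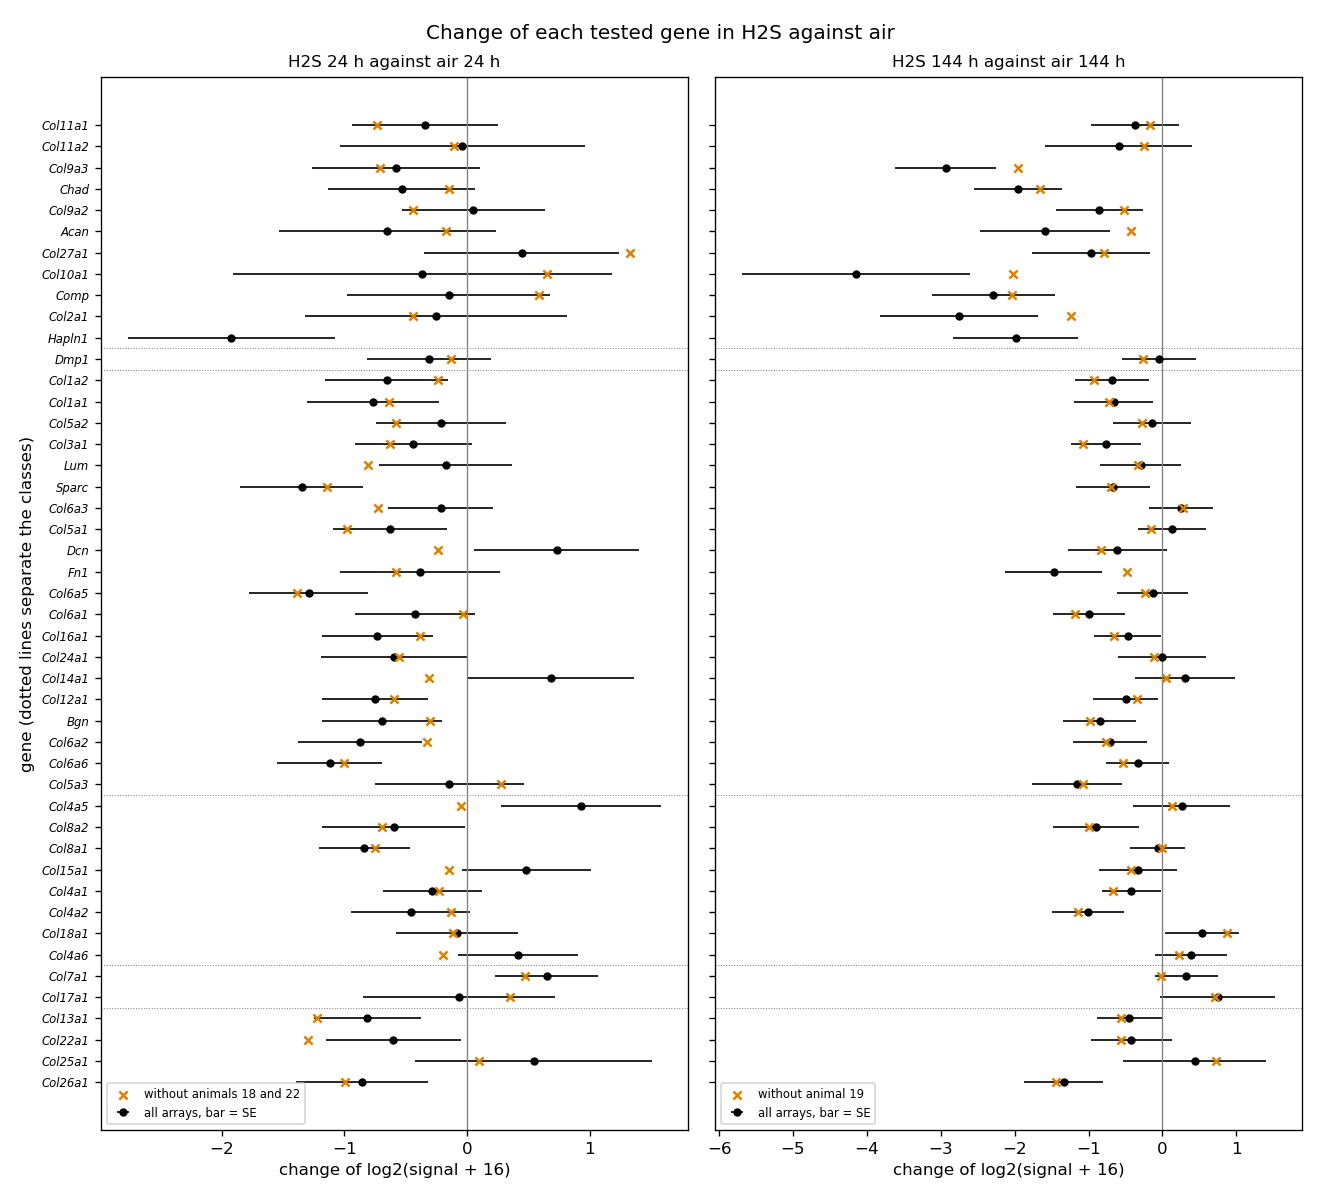
Difference of group means, H2S minus air, for the 46 tested genes at 24 h (left) and 144 h (right), in log2(signal + 16), with limma's SE as bars and crosses for the fit without animals 18 and 22 (left) or without animal 19 (right). Hapln1 has no cross because it fell below the filter there. Most points lie left of 0 in both panels, and the crosses of Col10a1 (-2.03), Acan (-0.43) and Fn1 (-0.48) lie much nearer to 0 than their points.

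The air groups were also set against each other. In air at 144 h against air at 24 h, 3 of 46 genes had an unadjusted p under 0.05 on the positive side (5.1% of probe sets) and none on the negative side (3.27%). Col2a1 averaged 8.88 ± 3.31 at 144 h and 5.85 ± 0.77 at 24 h (SD, n = 4 each), a difference of 3.03 (SE 1.07, adjusted p = 0.552), and 1.5 without animal 19. Col9a2, a further type IX chain, read 10.75, 9.27, 9.60 and 9.41 at 144 h, all above the 8.12, 9.20, 8.47 and 6.64 at 24 h (1.24% of probe sets), a difference of 1.65 (SE 0.587, adjusted p = 0.552). Col9a3 was the third, with 1.43, or 0.45 without animal 19. Of genes with no test, Col9a1 averaged 8.13 ± 3.53 at 144 h and 4.79 ± 0.38 at 24 h (SD, n = 4 each), also without overlap and with animal 19 at 13.28. On the negative side Col6a5 did not overlap (0.848% of probe sets), with 10.47, 10.99, 10.84 and 10.77 at 144 h and 11.86, 11.92, 11.40 and 11.33 at 24 h. The median difference of the cartilage genes between the air groups was 1.43, or 0.47 without animal 19, and that of the stromal genes was 0.079. The remaining genes with the smallest p of their class were Col18a1 (-1.02, SE 0.499, adjusted p = 0.600, difference -0.45 without animal 22), Col8a1 (-0.71, SE 0.369, adjusted p = 0.619), Dmp1 (-0.22, SE 0.504, adjusted p = 0.931, difference -0.0018 without animal 19), Col17a1 (-0.63, SE 0.779, adjusted p = 0.839, difference -0.10 without animal 20), Col7a1 (0.17, SE 0.421, adjusted p = 0.940, difference -0.12 without animal 21), Col22a1 (0.72, SE 0.551, adjusted p = 0.71, difference 0.020 without animal 18), Col26a1 (0.62, SE 0.536, adjusted p = 0.745), Col14a1 (1.19, SE 0.673, adjusted p = 0.640, difference 0.19 without animal 18) and Col6a5 (-0.86, SE 0.486, adjusted p = 0.640).

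Whether H2S minus air was unlike at 144 h and at 24 h was tested as an interaction, with 1 of 46 genes at an unadjusted p under 0.05 on the negative side (2.91% of probe sets) and none on the positive side (1.78%). That gene was Col9a3, with -2.36 (SE 0.967, adjusted p = 0.946), and -1.38 without animal 19. Comp had -2.14 (SE 1.17, adjusted p = 0.946, difference -1.89 without animal 19) and Col2a1 -2.50 (SE 1.51, adjusted p = 0.946, difference -0.98 without animal 19). On the positive side Col6a5 had 1.16 (SE 0.687, adjusted p = 0.946, difference 0.56 without animal 14). The remaining genes with the smallest p of their class were Col8a1 (0.77, SE 0.522, adjusted p = 0.946), Col15a1 (-0.81, SE 0.745, adjusted p = 0.952, difference -0.19 without animal 18), Dmp1 (0.26, SE 0.713, adjusted p = 0.979, difference -0.15 without animal 14), Col17a1 (0.81, SE 1.10, adjusted p = 0.961, difference -0.050 without animal 25), Col7a1 (-0.32, SE 0.596, adjusted p = 0.967, difference -0.036 without animal 21), Col26a1 (-0.48, SE 0.758, adjusted p = 0.964, difference -0.27 without animal 11), Col13a1 (0.37, SE 0.616, adjusted p = 0.965, difference -0.043 without animal 17) and Dcn (-1.34, SE 0.949, adjusted p = 0.946, difference -0.37 without animal 18). Limma called none of the 46 genes in this comparison.

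Genes that make, regulate or bind collagen were examined as lists, with those of other cell types, 12 lists of 94 genes in all, of which 86 were tested. Limma called 0 of them in all 6 comparisons, while at an unadjusted p under 0.05 6 were positive and 1 negative at 3 h, where 6% and 3.79% of probe sets were. At 6 h 9 were positive and 0 negative (3.45% and 2.36% of probe sets), at 24 h 2 and 1 (4.8% and 3.29%), and at 144 h 1 and 7 (3.8% and 4%). Between the air groups 7 were positive and 0 negative (5.1% and 3.27%), and for the interaction 1 and 1 (1.78% and 2.91%). Of 18 tested genes of collagen making, 4 had a positive difference at that p at 6 h (3.45% of probe sets), led by the crosslinking enzyme Lox (1.69, SE 0.716, adjusted p = 0.781) and the procollagen protease Bmp1 (1.54, SE 0.695, adjusted p = 0.781, difference 0.80 without animal 18). Of 10 tested matrix growth factors and receptors 2 did so, led by Tgfb3 (2.01, SE 0.668, adjusted p = 0.781), and of 6 collagen receptors 3 did so, among them Ddr2 (0.92) and the integrin Itga1 (1.27, and 0.69 without animal 18). Lox was highest on animal 10 and Tgfb3 on animal 13, arrays that were also high in Dmp1. At 144 h, 1 gene of collagen making, the prolyl hydroxylase P3h3 (-2.23, SE 0.998, adjusted p = 0.626), and 1 growth factor gene, Ltbp2 (-1.17, SE 0.489, adjusted p = 0.606), had a negative difference at that p (4% of probe sets). Of the lists of other cells, the levels over the arrays ran from -0.24 to 1.02 for vessel markers, from -1.50 to 0.77 for smooth muscle, from 0.43 to 2.66 for leukocytes, from 0.98 to 2.29 for fibroblasts and from -1.62 to 0.59 for blood.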

How the data were processed

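RNA of 23 laser-captured samples, 1 array per animal, was measured on Affymetrix Rat230_2 arrays. The deposited values are linear intensities per probe set, made with GCOS 1.0 per the submitters' processing notes, whose settings the sources used here do not give. The mean intensity of each array, after 2% was trimmed at each end, was about 500, so a scaling of each array was inferred from the deposited values. Precision is limited by how many arrays there are, and detection calls were not used here. Names came from the platform annotation, which can be old: 20832 probe sets had 1 symbol, 436 several and 9831 none, and only the first kind was named.

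Values were taken as log2(intensity + 16), so fold changes of dim genes are understated. Of 31099 probe sets, 57 controls were left out, and 19822 that lay over the array median on 3 or more arrays were tested with limma 3.58.1 in R 4.3.3, in 1 fit over the 6 title groups with Benjamini-Hochberg adjustment at 0.05. Summaries used Python 3.11.15, pandas 2.3.3 and scipy 1.17.1, and the fit was tested on simulated data. Arrays were taken as separate animals from the numbers in their titles. The genes, classes and lists were chosen with earlier results of these data known. Every gene of the set may be named. Values on every array were given for 7 chosen genes and for the 4 of each class with the highest mean, and per comparison the 2 of each class with the smallest p were named. Alternatives were a pseudocount of 1 or 64, quantile normalization, median centring, no filter, the mean of a gene's probe sets, the RNA integrity number as covariate on the 19 arrays that have one, a fit of only the groups compared, and leaving out animals.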

Additional observations from a re-analysis of the deposited data

Results flagged for a closer look

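In groups of 4 animals, 9 of 145 gene or class values had 1 animal far from the other 3 for the range of the group, where chance gives about 1 in 20. In air animals at 144 h, Fn1 read 14.94 and Col25a1 8.57 in animal 19, Chad read 7.45 and Col4a5 11.74 in animal 20, and Col15a1 read 10.14 in animal 21. In H2S animals at 144 h, Col2a1 read 4.81 in animal 26, Comp read 4.35 in animal 25, and the level of the epithelial anchoring class was 1.06 in animal 25. In H2S animals at 3 h, Col8a2 read 8.50 in animal 3.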

How the results depend on the processing

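Limma called 0 genes of the set in each comparison and under each alternative that was run, except that 1 gene was called at 6 h with the RNA integrity number as covariate. That gene was Col25a1, with a difference of 4.27 (SE 0.736, adjusted p = 0.0272), in a fit that leaves out animals 5, 6, 9 and 15, which have no such number. Leaving out animal 9 alone gave 3.32 (adjusted p = 0.319). The median difference of the cartilage genes at 3 h was 0.28 without animals 18 and 22, and from -0.57 to 0.28 as single animals were left out. At 6 h that range was -0.12 to 0.70. Median centring gave stromal medians of 0.28 at 6 h and -0.22 at 144 h. Under it the median of all tested probe sets was 0.27 at 3 h, 0.34 at 6 h, 0.34 at 24 h and 0.32 at 144 h, against 0.087, 0.079, 0.073 and -0.022 as deposited. With a pseudocount of 64 the stromal level was 2.46 in H2S animals at 3 h, 2.70 at 6 h and 2.34 at 144 h, against 2.72 in air animals at 24 h and 2.75 in air animals at 144 h. At 6 h it was 3.23 with a pseudocount of 1 and 3.16 after quantile normalization. Over 160 pairs of a gene and a comparison, 2795 of 3047 recomputed differences kept their direction and their side of the threshold, 251 changed sign without a call, and 1 gained a call. The causes were not tested. No paired analysis was possible because each animal has its own number and the groups share none. Counts of probe sets called at 3 h were 16 as deposited, 24 without animals 18 and 22, 20 with a pseudocount of 64, 17 with the mean of a gene's probe sets, 13 with median centring, 11 after quantile normalization, 9 with a pseudocount of 1, 8 without the filter, 8 without animals 6, 14 and 18, and 0 when only the compared groups were fitted or with the RNA integrity number. They ran from 3 to 20 as single animals were left out. At 6 h 1 was called as deposited, 29 with the RNA integrity number and 11 without animal 9. At 24 h it was 2, and from 0 to 3 under the alternatives, and at 144 h 0, and up to 2.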
